A study of Mus musculus with 3 samples.

Results

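A group of 9 genes for the surface and signalling proteins of mature B cells was followed in the bone marrow (BM) of mice given LECT2. The members, chosen by gene symbol, were Ms4a1, Cd22, Fcer2a, Cr2, Fcrla, Blk, Cd37, Tnfrsf13c and Pou2af1, out of 17239 gene names with a value in the RNA-sequencing tables. LECT2 (leukocyte cell-derived chemotaxin 2) is a cytokine, and the study asked how it acts on haematopoietic stem cells of the marrow. C57BL/6 male mice of 6 to 8 weeks received recombinant LECT2 under the skin once a day at 300 μg per kg of body weight for 0, 3 or 5 days, so the 0-day mice received none. No allele or transgene was added to any group. BM cells were then flushed from the long bones and the pelvis, and no sort for B cells is described. The labels and methods name flushed BM cells, whereas a supplement of the study speaks of BM mononuclear cells, and late neutrophil genes were among the most abundant at 0 days (S100a9 at 61729 RPKM). Each time point was 1 library, and the number of mice behind it is not given in the sources used here.

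B cells arise in the BM through pro-B and pre-B stages, and mature B cells later return to it with the blood. Along the way they take on a set of surface proteins that tune the antigen receptor, and of cytokine receptors that keep them alive. CD20 (Ms4a1) is a membrane protein of B cells and the target of therapeutic antibodies. CD22 is a sialic acid-binding receptor that dampens antigen receptor signals through the phosphatase SHP-1 (Ptpn6). CD21 (Cr2) binds complement fragments on antigen, and CD23 (Fcer2a) is the low-affinity IgE receptor. CD37 is a tetraspanin, a protein that organises other membrane proteins. The BAFF receptor (Tnfrsf13c) takes up the survival cytokine BAFF. Blk is a Src-family kinase beneath the antigen receptor, and Fcrla is a relative of Fc receptors that stays inside the B cell. Pou2af1 encodes OCA-B, a coactivator that joins the octamer-binding factors Oct1 and Oct2 on B cell promoters.

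The promoters of Pou2af1, the member with the largest increase at 5 days among the 8 with a mean above 1 RPKM, of Cd22, a member with an increase that depended on the processing, and of Cd37, the most abundant member, are shown so that their sequence can be read beside their values. Each run is 300 bases, from 250 bases before to 50 bases after the RefSeq start, 5′ to 3′ on the strand of the gene (RefSeq, build GRCm38.p6). Capitals mark matches, on either strand, to the PU.1 core GAGGAA, the E2A E-box CAGGTG, the octamer ATGCAAAT or the TATA element TATAAA. None of the marked matches overlap.
Pou2af1, chr9:51213440-51213739, plus strand: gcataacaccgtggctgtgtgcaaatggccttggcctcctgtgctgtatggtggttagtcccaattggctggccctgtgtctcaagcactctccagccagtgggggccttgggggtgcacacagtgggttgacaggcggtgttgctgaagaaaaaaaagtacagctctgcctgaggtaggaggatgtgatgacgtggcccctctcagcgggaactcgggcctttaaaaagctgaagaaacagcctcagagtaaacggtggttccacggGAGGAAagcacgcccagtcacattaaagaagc
Cd22, chr7:30878979-30879278, minus strand: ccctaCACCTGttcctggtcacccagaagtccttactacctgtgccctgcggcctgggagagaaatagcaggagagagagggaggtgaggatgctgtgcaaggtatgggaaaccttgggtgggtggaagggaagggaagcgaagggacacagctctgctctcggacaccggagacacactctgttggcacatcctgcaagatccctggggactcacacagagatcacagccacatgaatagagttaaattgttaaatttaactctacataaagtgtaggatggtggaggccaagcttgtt
Cd37, chr7:45238790-45239089, minus strand: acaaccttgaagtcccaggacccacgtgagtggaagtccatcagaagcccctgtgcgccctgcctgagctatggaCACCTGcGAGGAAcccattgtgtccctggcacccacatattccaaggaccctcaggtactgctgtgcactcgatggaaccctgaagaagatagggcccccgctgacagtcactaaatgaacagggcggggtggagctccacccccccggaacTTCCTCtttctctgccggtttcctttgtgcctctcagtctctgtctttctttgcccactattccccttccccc
Promoters were found for 7 of the 9 members. The E-box was present in 6 of their 9 start-site windows, against 20.2% of 32851 mouse promoters of the same length. The PU.1 core was present in 3 of 9 windows, against 28.3% of all promoters. The TATA letters were present in 2 of 9 windows, against 13.6%, and the octamer was in none of them, against 1.74%. The window of Cd37 held both an E-box, 175 bases before the start, and 2 PU.1 cores, 168 and 23 bases before it. Pou2af1 held 1 PU.1 core 18 bases after the start, and Cd22 held 1 E-box 245 bases before it. A match is only a stretch of letters, and binding was not measured here.

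Reads assigned to genes numbered 15523952 in the 0-day library, 15146983 in the 3-day and 15514673 in the 5-day library. Levels are given in RPKM, the reads of a gene scaled to its length in kilobases and to the library total, so that genes of different length can be set side by side. A change is the log2 ratio of 2 levels after adding 0.1 RPKM to each. Its bracketed interval is an exact 95% interval of the ratio of the 2 read counts, and it covers counting error only. With 1 library per time point the spread between mice is unknown and no test was possible. In such mixed cells, fewer B cells and less RNA per B cell cannot be told apart. The median of all genes moved by 0.10 at 3 days and by 0.31 at 5 days on this scale, so each change was also read after TMM scaling, which centres most genes near 0.

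The levels of the members spanned from Cd37, among the most abundant transcripts of the marrow, to Fcer2a, close to no reads at all. Cd37 (chr7:45233632-45239115, minus strand) was at 395 RPKM at 0 days, higher than 98.8% of the genes with reads. Fcrla (chr1:170917576-170927583, minus strand) followed at 170 RPKM, and Pou2af1 (chr9:51213708-51240080, plus strand) at 107 RPKM. Ms4a1 (chr19:11249675-11266241, minus strand) was at 77.9 RPKM, Tnfrsf13c (chr15:82221743-82224369, minus strand) at 66.8 RPKM and Blk (chr14:63372836-63417037, minus strand) at 45.9 RPKM. Cd22 (chr7:30865402-30880342, minus strand) was at 24.3 RPKM at 0 days. Cr2 (chr1:195136811-195176716, minus strand) was at 2.17 RPKM, higher than 39.5% of the genes with reads. Fcer2a (chr8:3681737-3694175, minus strand) was at 0.0862 RPKM. Gene positions are those of GENCODE M21 on GRCm38, whereas the deposited tables hold no positions and their notes name mm8. The counting intervals of neighbours in this order did not overlap at any time point. The order was the same at 0 and 3 days, and at 5 days Pou2af1 (163 RPKM) stood above Fcrla (141 RPKM).

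**Figure D1:**
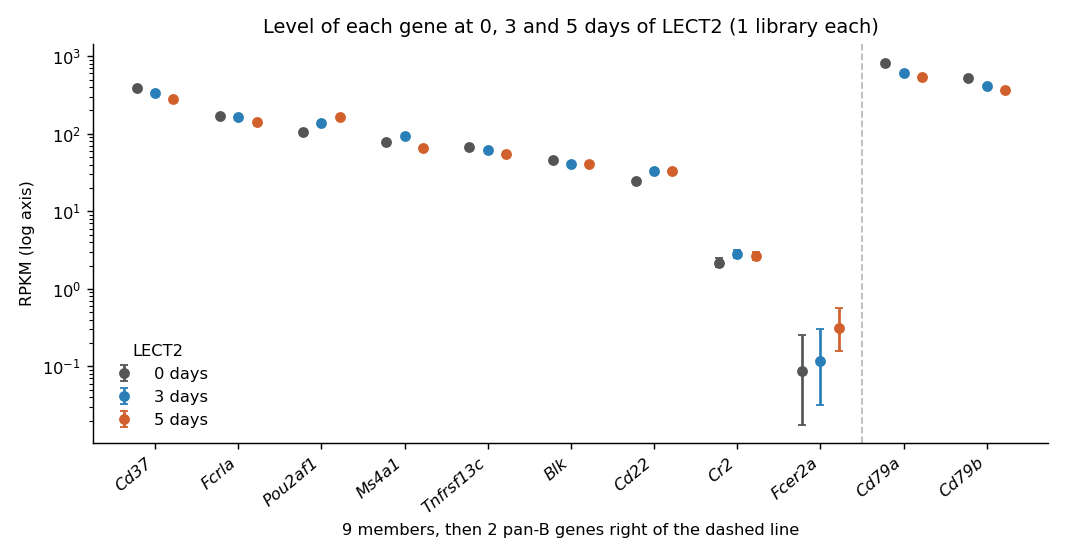
RPKM (log axis) of the 9 members and of the pan-B genes Cd79a and Cd79b at 0, 3 and 5 days of LECT2, 1 library each; bars are 95% counting intervals. Cd37 is at 395 RPKM at 0 days and Fcer2a at 0.0862 RPKM, and Pou2af1 is higher at each later time.

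The label of mature B cells was met unevenly. CD23 and CD21 are the members that appear late, on mature B cells, and Fcer2a and Cr2 were the 2 lowest members. Of the 12 pro-B and pre-B genes in the same library, the highest was Vpreb3 at 362 RPKM, followed by Igll1 (lambda5, of the surrogate light chain) at 139 RPKM. The lowest were Rag2 and Vpreb2, the latter at 5.56 RPKM. The immunoglobulin genes Ighm and Ighd had no row, so IgM and IgD were not analysed here. Most members, among them Cd37, Blk and Pou2af1, are known to be expressed before the mature stage too.

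The value of Fcer2a is uncertain. The tables held 3 rows for it, 1 under the gene and 2 under single transcripts, and its reads numbered 3, 4 and 11 in the highest row and 3, 4 and 13 in all rows. Gene names with more than 1 row were low in general. The 232 such names had a median summed level of 0.445 RPKM against 4.35 RPKM for names with 1 row. Csf3r, the G-CSF receptor of neutrophils, was also split and had 28, 58 and 22 reads, although S100a8, another neutrophil gene, was at 28717 RPKM at 0 days. How reads shared between rows were assigned is not given in the sources used here, and its part in the Fcer2a level was not tested. The count ratio of Fcer2a at 5 against 0 days was 1.88 on the log2 scale (−0.05 to 4.36), an interval that includes 0, and with no minimum level 13.6% of all gene names were 2-fold higher. The comparisons below therefore rest on the other 8 members, all with a mean above 1 RPKM.

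After LECT2 treatment for 3 days, the members divided. Pou2af1, Cd22, Cr2 and Ms4a1 were higher than at 0 days, and Cd37, Blk and Tnfrsf13c were lower. None of the 8 members reached a 2-fold change in either direction. Over the 11322 genes at 1 RPKM or more in either library, a 2-fold or larger increase was seen for 4.08% and a decrease of that size for 2.41%. These shares were 3.11% and 3.14% after TMM scaling, and 2.59% and 1.81% with the length trend removed, and no member was called there either. The median of the 8 members was 0.12, beside 0.10 over all genes, and it was −0.033 over the 7 members above 5 RPKM, that is, without Cr2.

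Among the surface receptors, Cd22 went from 24.3 to 32.7 RPKM, a log2 ratio of 0.43 (0.33 to 0.53). Ms4a1 went from 77.9 to 94.8 RPKM, a ratio of 0.28 (0.21 to 0.36). Cr2 went from 2.17 to 2.83 RPKM, from 209 to 266 reads, a ratio of 0.37 (0.12 to 0.65). The tetraspanin gene Cd37 was lower, at 339 RPKM, with a ratio of −0.22 (−0.27 to −0.17). The BAFF receptor gene Tnfrsf13c was at 61.2 RPKM, with a ratio of −0.13 (−0.22 to −0.03). Of the genes inside the cell, Blk was at 40.9 RPKM with a ratio of −0.17 (−0.27 to −0.07), and Fcrla at 166 RPKM with a ratio of −0.03 (−0.09 to 0.03). Pou2af1 went from 107 to 140 RPKM, a ratio of 0.39 (0.33 to 0.45). Cd22, Ms4a1 and Pou2af1 were above 0, and Blk and Tnfrsf13c below 0, under all 8 ways of processing the values. Of these ways, the pseudocounts and the summed rows cannot turn the sign of these members. Only the other scalings of the libraries and the removal of the length trend could. The sign of the other 3 members depended on the processing. Cr2 was at −0.10 and Cd37 at 0.06 once the trend with gene length was removed.

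After 5 days, most members were lower than at 0 days and Pou2af1 was higher. Pou2af1 was at 107, 140 and 163 RPKM at 0, 3 and 5 days (4252, 5428 and 6496 reads), the highest value at the latest time. Its log2 ratio at 5 against 0 days was 0.61 (0.56 to 0.67), or 1.53-fold, and 34.5% of all genes were at least 1.5-fold higher. It was the only one of the 8 members above 0 under all 8 ways of processing, with a range of 0.27 to 0.61. As at 3 days, only the other scalings and the removal of the length trend could turn a sign. Against 3 days it was 0.22 higher (0.17 to 0.28), but 0.00 after TMM scaling. The sign of its step from 3 to 5 days thus depended on the processing. That of its difference from 0 days did not, although its size was 0.30 after TMM scaling.

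Cd37 was at 395, 339 and 284 RPKM (7512, 6290 and 5409 reads), lowest at the latest time. Its ratio at 5 days was −0.47 (−0.52 to −0.42), the lowest of the 8 members on the deposited scale. With the length trend removed it was −0.37, and Blk and Cr2 were lower, at −0.48. Tnfrsf13c was at 66.8, 61.2 and 54.3 RPKM (1976, 1767 and 1605 reads), with a ratio of −0.30 (−0.40 to −0.20). Fcrla was at 170, 166 and 141 RPKM (4551, 4340 and 3768 reads), with a ratio of −0.27 (−0.33 to −0.21). Blk was at 45.9, 40.9 and 41.1 RPKM (1765, 1535 and 1578 reads), with a ratio of −0.16 (−0.26 to −0.06), and its values at 3 and 5 days were within counting error of each other. These 4 genes and Ms4a1 were below 0 at 5 days under all 8 ways of processing.

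Ms4a1 was at 77.9, 94.8 and 66.4 RPKM (2487, 2953 and 2119 reads), highest at 3 days and lowest at 5 days. Its ratio at 5 days was −0.23 (−0.31 to −0.15), on the other side of 0 from 3 days. From 3 to 5 days its ratio was −0.51 (−0.59 to −0.43), the largest step of the 8 members, and the sign held under all 8 ways of processing. Cd22 was at 24.3, 32.7 and 33.4 RPKM (1547, 2032 and 2120 reads), with a ratio of 0.45 (0.36 to 0.55) at 5 days. This ratio was 0.15 after TMM scaling and −0.13 with the length trend removed. Cr2 was at 2.17, 2.83 and 2.66 RPKM (209, 266 and 256 reads), with a ratio of 0.28 (0.02 to 0.56), which was −0.01 after TMM scaling and −0.48 with the length trend removed.

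None of the 8 members was 2-fold higher or lower at 5 days, whereas 15.5% of 11494 genes were higher and 5.91% lower by that factor. After TMM scaling the shares over all genes turned to 7.24% higher and 9.92% lower, and with the length trend removed to 5.05% and 7.61%, again with no member among them. From 3 to 5 days no member passed 2-fold, whereas 1.95% of 11372 genes were higher and 3.46% lower. The shares were 0.651% and 4.84% after TMM scaling, and 0.651% and 4.93% with the length trend removed. The median of the 8 members was −0.20 at 5 days on the deposited scale and −0.50 after TMM scaling, beside all-gene medians of 0.31 and 0.01. Both comparisons with 0 days share the same 0-day library.

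**Figure D2:**
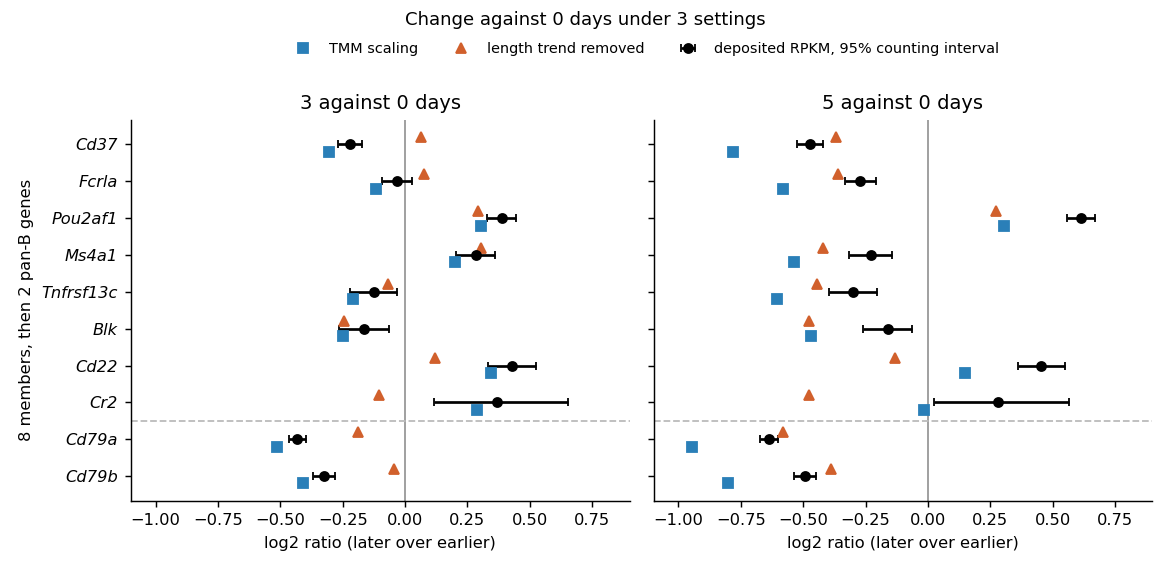
Log2 ratio of 8 members and 2 pan-B genes at 3 days (left) and 5 days (right) against 0 days; black points with 95% counting intervals are deposited RPKM, squares are after TMM scaling and triangles after removing the trend with gene length. At 5 days Pou2af1 is the only member right of 0 in all 3 settings.

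Gene length went along with these changes. Over all genes, the median log2 ratio at 5 days ran from −0.43 in the tenth of genes with at most 1051 bases to 0.85 in the tenth with at least 5802 bases. The members tended the same way, though not in strict order. The shortest member of the 8, Cd37 (1226 bases), had the lowest ratio, and the 3 longest, Pou2af1 (2566 bases), Cd22 (4097 bases) and Cr2 (6207 bases), had the 3 highest. Among these 3 the ratio was lower the longer the gene, from 0.61 for Pou2af1 to 0.28 for Cr2. Spearman's rho between length and ratio was 0.881 over the 8 members at 5 days and 0.762 at 3 days, beside 0.504 and 0.573 over 11141 genes. These points are genes of the same libraries and not replicates. What links length and ratio was not tested.

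With the trend over all genes taken away, the members lay closer together. At 5 days, 7 of the 8 were below the genes of their own length, from −0.48 for Blk and Cr2 to −0.13 for Cd22. Pou2af1 was 0.27 above them. The same remainder was −0.58 for Cd79a and −0.39 for Cd79b, which encode the signalling chains of the antigen receptor in all B lineage cells. At 3 days the remainders ran from −0.24 (Blk) to 0.30 (Ms4a1), and Pou2af1 was at 0.29.

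**Figure D3:**
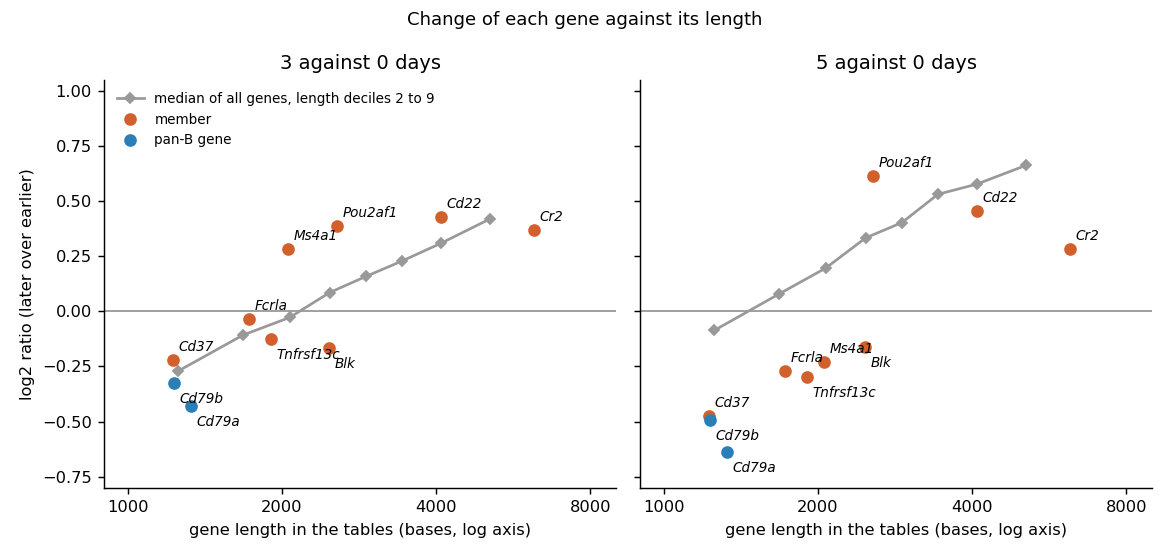
Log2 ratio against gene length (log axis) at 3 days (left) and 5 days (right) for 8 members and 2 pan-B genes; the grey line joins the medians of all genes in length deciles 2 to 9. At 5 days Pou2af1 lies above the line, with 2566 bases and a ratio of 0.61, and the others lie below the genes of their length.

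Ratios between genes of nearly equal length within a library do not depend on the scaling between libraries, and both genes have a similar place on the trend with length. Of the 8 members and 2 pan-B genes, 4 pairs that held a member differed by at most 10% in length. The ratio of Pou2af1 to Blk, another gene of the B cell interior, went from 2.32 to 3.41 and then 3.97. Its log2 change was 0.55 (0.44 to 0.67) at 3 days and 0.77 (0.66 to 0.89) at 5 days. OCA-B transcripts thus stood higher, relative to another member of similar length, at each later time.

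The other pairs stayed closer to their 0-day value. Cd37 over Cd79b was 0.76, 0.81 and 0.77, with a change at 5 days of 0.02 (−0.05 to 0.09). Cd37 over Cd79a was 0.48, 0.55 and 0.53, a change at 5 days of 0.16 (0.10 to 0.22). Ms4a1 over Tnfrsf13c was 1.17, 1.55 and 1.22, a change of 0.41 (0.29 to 0.53) at 3 days and of 0.07 (−0.06 to 0.20) at 5 days. CD20 transcripts thus stood out at 3 days from those of the BAFF receptor, and not beyond counting error at 5 days.

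**Figure D4:**
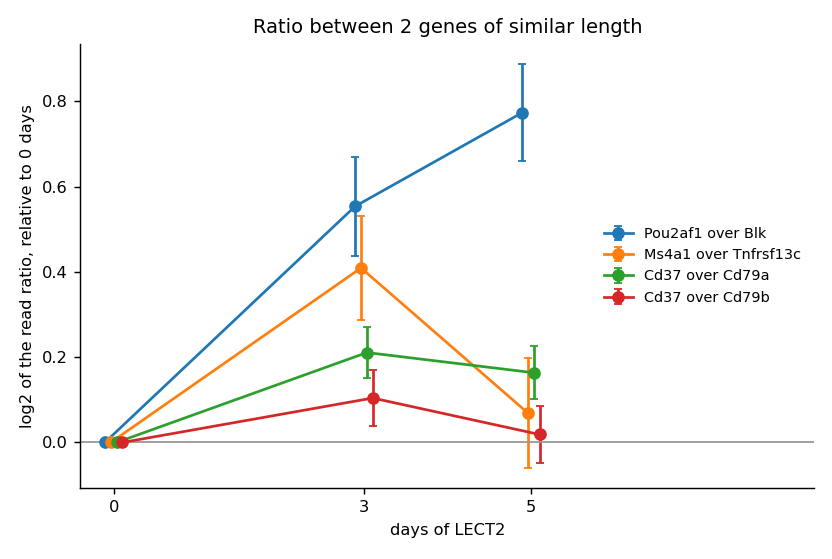
Log2 of the ratio between 2 genes of similar length, relative to its value at 0 days, for 4 pairs at 0, 3 and 5 days; bars are 95% counting intervals. Pou2af1 over Blk is at 0.77 at 5 days, while Cd37 over Cd79b is at 0.02.

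The pan-B genes themselves were lower at each later time. Cd79a was at 827, 614 and 532 RPKM, a log2 ratio of −0.64 (−0.67 to −0.60) at 5 days. Cd79b was at 523, 417 and 372 RPKM, a ratio of −0.49 (−0.54 to −0.45). Both are short genes, of 1327 and 1232 bases, and of the members Cd37 was the nearest to them in length and in ratio. The summed level of the 9 members was 888, 877 and 786 RPKM, and that of Cd79a and Cd79b was 1350, 1031 and 904 RPKM. Summed as reads, with no division by length, the members held 24302, 24615 and 23362 reads and Cd79a and Cd79b 27042, 20120 and 18064 reads. The members' sum at 3 days was thus below that at 0 days in RPKM and above it in reads, also relative to the library totals.

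Genes of the same pathways were read from 7 lists of other B cell genes. At 3 days, Pik3ap1, Bcl6, Ikzf3, Cd180 and Rag1 were 2-fold higher than at 0 days, and none of the genes in these lists was 2-fold lower, beside 4.08% and 2.41% over all genes. With the length trend removed, Bcl6 (0.80), Ikzf3 (0.86) and Rag1 (0.75) were under 2-fold, and after TMM scaling Bcl6 (0.93) was. Cd83 passed 2-fold lower under both, with −1.08 after TMM scaling. With the length trend removed, Tnfrsf13b (1.33) passed 2-fold higher and Bcl2 (−1.05) 2-fold lower as well. From 3 to 5 days, Tnfsf13b, Cd83, Ccr7 and Bst1 were 2-fold lower and none was 2-fold higher, of 84 genes of these lists above the minimum, beside 3.46% lower and 1.95% higher over all genes (4.84% and 0.651% after TMM scaling). To these TMM scaling added Vpreb2 (−1.09), and removal of the length trend added Bcl6 (−1.03) and S1pr1 (−1.03). Bcl6, Bst1, Cxcr5, S1pr1, Bcl2, Ltb, Prkcb, Foxp1, Rag2, Cd93, Lef1 and Tnfrsf17 were named after their values were seen. Of the same lists together, 10 genes of 84 were 2-fold higher at 5 than at 0 days and 5 were 2-fold lower, beside 15.5% and 5.91% over all genes (7.24% and 9.92% after TMM scaling). After TMM scaling, 1 antigen receptor gene and 1 transcription factor gene were higher, and none of either list was lower. Higher and lower calls were 0 and 1 in the BAFF list, 1 and 2 among other mature B cell genes and 0 and 3 among homing receptors. They were 0 and 4 for pro-B and pre-B genes and 1 and 1 for plasma cell genes. Of 20 antigen receptor signalling and co-receptor genes, all above 1 RPKM, 1 was at least 2-fold higher at 5 days and none 2-fold lower, with a median of 0.25 (−0.06 after TMM scaling and −0.18 with the length trend removed). Prkcb, at −0.25, was 2-fold lower on that last scale (−1.14). The gene that was 2-fold higher was Pik3ap1, an adaptor for PI3-kinase also known as BCAP, at 22.0, 48.0 and 57.1 RPKM (log2 ratio 1.37, 1.26 to 1.49). Ptpn6, the phosphatase recruited by CD22, was at 181, 216 and 213 RPKM, a ratio of 0.23 (−0.08 after TMM scaling). Cd81, a tetraspanin partner of CD21, had the lowest ratio of the list on the deposited scale, −0.40.

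In the BAFF and APRIL system, 1 of 10 genes was 2-fold higher and 1 was 2-fold lower at 5 days, beside 15.5% and 5.91% over all genes, shares that 1 gene of 10 does not stand apart from. Tnfsf13b, the gene of the ligand BAFF, was at 21.7, 21.9 and 9.20 RPKM (577, 568 and 244 reads), a ratio of −1.23 (−1.46 to −1.02). Its ratio at 3 days was 0.01, so its low value was that of the 5-day library. Tnfrsf13b, the gene of the receptor TACI, was at 8.67, 15.7 and 20.3 RPKM (101, 178 and 236 reads), a ratio of 1.22 (0.88 to 1.58). This ratio was 0.91, under 2-fold, after TMM scaling and 1.63 with the length trend removed. The member of this system, Tnfrsf13c, lay between them at −0.30. The third receptor gene, Tnfrsf17 (BCMA), had 3, 3 and 8 reads and stayed below 1 RPKM. The most abundant gene of the list, Birc3, an inhibitor of cell death, had a ratio of −0.26.

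Of 12 octamer factor and B cell transcription factor genes, 1 was 2-fold higher at 5 days and none was 2-fold lower, beside 15.5% and 5.91% over all genes. Their median was 0.37 (0.06 after TMM scaling and −0.24 with the length trend removed). On this last scale none was 2-fold higher and 1, Foxp1 (−1.22), was 2-fold lower, beside 5.05% and 7.61% over all genes. Pou2f2 (Oct2) was at 32.4, 40.9 and 42.3 RPKM, a ratio of 0.38 that was 0.08 after TMM scaling and −0.11 with the length trend removed. Pou2f1 (Oct1) was at 2.86, 3.32 and 4.98 RPKM, a ratio of 0.78, but it is 13050 bases long and was at −0.26 with the length trend removed. Pou2af1 itself was at 0.27 on that last scale. Both octamer genes were named after their values were seen, as the known partners of OCA-B. Ikzf3 (Aiolos), a factor of B cell maturation, was at 16.5, 37.2 and 45.0 RPKM, a ratio of 1.44 (0.86 with the length trend removed). Pax5, the B lineage commitment factor, was at 165, 130 and 105 RPKM, a ratio of −0.66, and Spib was at 171, 209 and 219 RPKM, a ratio of 0.36 that was 0.05 after TMM scaling and −0.025 with the length trend removed.

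Other genes of mature B cells lay on both sides of 0 at 5 days. Of 18 listed genes, 16 had a row and 14 were above 1 RPKM. Of these, 11 were below 0 and 3 above, of which 6 and 2 were so beyond counting error, with a median of −0.12 (−0.42 after TMM scaling and −0.45 with the length trend removed). On the deposited scale 1 was 2-fold higher and 1 was 2-fold lower, beside 15.5% and 5.91% over all genes. TMM scaling added Ltb (−1.11) to the 2-fold lower genes, and removal of the length trend added Bcl2 (−1.05). The largest values lay on both sides. Cd180, a Toll-like receptor homologue of B cells, was at 13.5, 33.1 and 41.4 RPKM, a ratio of 1.61. Cd83, an activation marker of B cells and dendritic cells, was at 43.7, 21.9 and 5.90 RPKM, a ratio of −2.87 (−3.11 to −2.67). Faim3, the IgM Fc receptor, was at 70.0, 69.1 and 58.9 RPKM, a ratio of −0.25. Of 7 homing receptor genes, 2 passed 2-fold at 5 days, and both were lower, beside 15.5% higher and 5.91% lower over all genes. S1pr1, the receptor for exit into the blood, was the third to be 2-fold lower after TMM scaling (−1.13) and with the length trend removed (−1.26). Over all genes 9.92% and 7.61% were lower on these 2 scales. Ccr7, which guides lymphocytes and dendritic cells to lymph nodes, was at 66.5, 36.2 and 12.8 RPKM, a ratio of −2.37. Cxcr5, the B cell follicle receptor, was at 11.1, 6.54 and 5.38 RPKM, a ratio of −1.03. Cnr2, a cannabinoid receptor of B cells, was at 10.4, 14.0 and 11.6 RPKM, a ratio of 0.15 that was −0.16 after TMM scaling. Cxcr4, the receptor that holds cells in the marrow, was at 422, 371 and 274 RPKM, a ratio of −0.62.

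Markers of earlier and later B cells lay on both sides of 0. Of 12 pro-B and pre-B genes, 4 were 2-fold higher and 1 was 2-fold lower at 5 days, beside 15.5% and 5.91% over all genes, with a median of −0.25, which became −0.56 after TMM scaling and 0.10 on removal of the length trend. None was 2-fold higher after TMM scaling, when 4 were 2-fold lower (9.92% of all genes were), or with the length trend removed, when 2 were. Rag1, of the recombinase, was at 17.9, 42.4 and 41.4 RPKM, and Rag2, Cd93 and Lef1 were the other genes 2-fold higher. Vpreb2, the gene that was 2-fold lower, had only 37, 22 and 12 reads, and a ratio of −0.84, under 2-fold, with the length trend removed. Vpreb3 was at 362, 273 and 269 RPKM. Of 9 plasma cell genes, 2 were 2-fold higher and none was 2-fold lower, beside the same 15.5% and 5.91% over all genes. After TMM scaling 1 was higher and 1 lower, beside 7.24% and 9.92%. The 2 genes higher on the deposited scale were Xbp1, another gene split over rows (10, 33 and 46 reads in all), and Slamf7. Xbp1 passed the minimum level only through the 5-day library, in which its row was at 1.25 RPKM, so its call is no evidence of a change. Slamf7 was at 12.0, 16.8 and 27.0 RPKM, a ratio of 1.16 (0.85 after TMM scaling and 0.58 with the length trend removed). Mzb1, a chaperone of antibody-secreting cells, was at 74.8, 45.2 and 42.0 RPKM, a ratio of −0.83. Its ratio was −1.14 after TMM scaling and −0.56, under 2-fold, with the length trend removed.

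**Figure D5:**
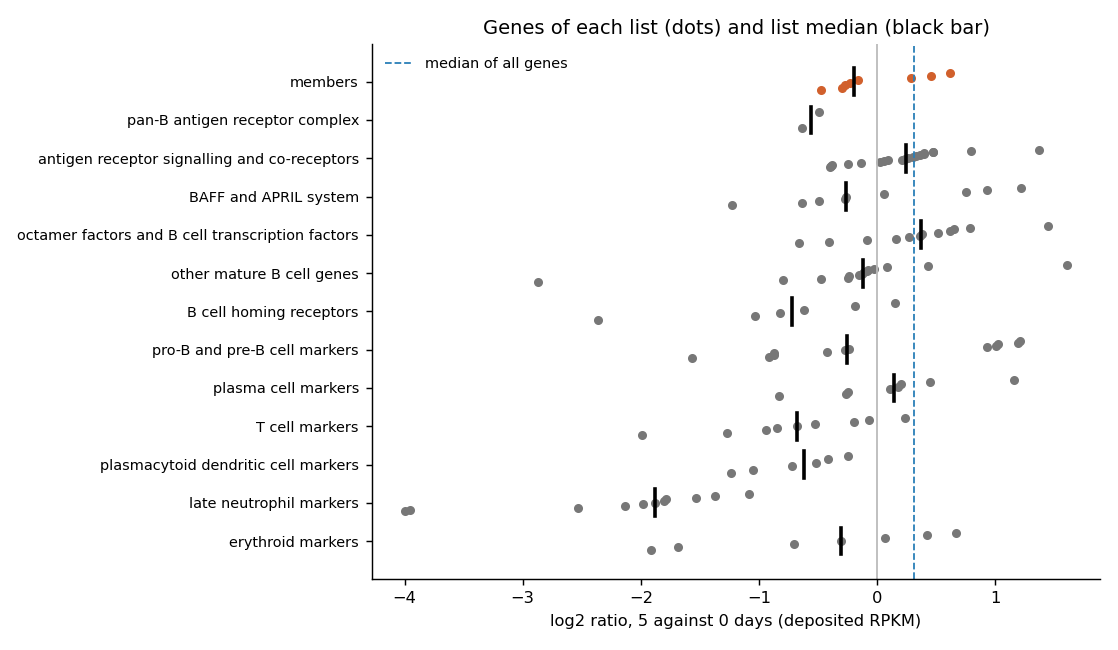
Log2 ratio at 5 against 0 days (deposited RPKM) of each gene with a mean of at least 1 RPKM in 13 lists; dots are genes, black bars list medians and the dashed line the median of all genes (0.31). The members lie between −0.47 and 0.61, with a median of −0.20.

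Transcript levels of genes of other marrow cells changed in the same libraries. At 5 days, a decrease of 2-fold or more was seen for all 11 late neutrophil genes above 1 RPKM (10 with the length trend removed), with a summed level of the list of 150033, 115996 and 41373 RPKM and S100a9 at 61729, 44195 and 14032 RPKM. Over all genes, 5.91% were 2-fold lower at 5 days (9.92% after TMM scaling and 7.61% with the length trend removed) and 2.41% at 3 days. Erythroid genes summed to 4389, 3570 and 1545 RPKM, with Hba-a1 at 2253, 1591 and 596 RPKM, and 2 of 7 (the globins Hba-a1 and Hbb-b1) were at least 2-fold lower at 5 days. The other erythroid genes lay on both sides of 0, with Slc4a1 at 109, 183 and 174 RPKM. The 9 T cell genes with a row summed to 90.3, 51.3 and 60.6 RPKM, with a 2-fold decrease of 2 of them at 5 days, Cd28 and Cd3d, the latter at 10.5, 3.97 and 2.57 RPKM. After TMM scaling there were 4, with Cd3g and Cd8b1, and at 3 days on the deposited scale 3 (Cd28, Cd3d and Cd3e). The 6 genes of plasmacytoid dendritic cells, some of them shared with B cells, summed to 752, 479 and 433 RPKM, with Bst2 and Cox6a2 at least 2-fold lower, although not with the length trend removed (−0.92 and −0.58). On that scale Tcf4 (−1.35) was 2-fold lower, and after TMM scaling Ly6d (−1.03) was too. The part of these changes in the members' values was not tested.

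Exons of Cd37 overlap those of Tead2 on the other strand, and the strand setting of the counting is not given in the sources used here. Tead2 had 45, 43 and 60 reads beside 7512, 6290 and 5409 for Cd37. Exons of Cd22 overlap Gm29439 on the other strand, which had no row.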

How the data were processed

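RNA of flushed BM cells was sequenced by the authors (TruSeq RNA kit, an Illumina HiSeq instrument), 1 library each at 0, 3 and 5 days. The deposited tables held, per gene row, read counts that the authors had not normalized, and RPKM values that the authors made from these counts, the gene length and the library total. The study's methods name Cufflinks 1.0.3 and the submitters' notes mm8. The aligner is not given in the sources used here. The deposited log2 ratios, P values and FDR were the authors' own comparisons and were not used.

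RPKM values of genes without reads are listed at 0.01 and were set to 0. RPKM equalled count over length and total except in 18 rows at 0 days, each with at most 27 reads, and 14 at 3 days, each with at most 36. Depth was 15523952, 15146983 and 15514673 reads. One read per kilobase of gene was 0.0644 to 0.0660 RPKM. A symbol spread over several rows was represented by its most abundant row (mean RPKM of the 3 libraries).

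Changes were log2 ratios with a pseudocount of 0.1 RPKM and exact 95% Clopper-Pearson intervals of the count ratio (scipy 1.17.1). They were tried on simulated counts with counting error only, the error that the intervals assume. That simulation held no length trend and no spread between mice. These intervals cover counting error only. A gene was called at 2-fold among genes with at least 1 RPKM in either library. The 7 other settings were pseudocounts of 1 and 0.01, TMM scaling (edgeR 4.0.16), median-of-ratios scaling (DESeq2 1.42.0), totals without the 100 most abundant genes, a lowess trend with length removed (span 0.3, statsmodels 0.14.6) and summed rows. Neither edgeR nor DESeq2 was used for a test, as no group had replicates. Promoters came from RefSeq on GRCm38.p6, matched by symbol.

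Named were all members, up to 3 genes per list (highest level, largest rise and largest fall at 5 days), the pan-B genes and the 5 genes nearest to the member medians. Others were named after their values were seen. Some listed genes, and the planned comparison of the members with a pan-B reference that included one of them, are not reported here. The members and lists were chosen with earlier results of these data known. Fcmr was matched as Faim3 by gene ID.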

Additional observations from a re-analysis of the deposited data

Results flagged for a closer look

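Ms4a1 (CD20) lay on opposite sides of 0 in the comparisons with the same 0-day library. Its log2 ratio was 0.28 (0.21 to 0.36) at 3 days and −0.23 (−0.31 to −0.15) at 5 days. The difference between these comparisons was not tested, as each time point was 1 library.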

How the results depend on the processing

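No paired analysis was possible because each time point was 1 library, and for the same reason no replicate could be left out. The pseudocounts of 1 and 0.01 and the summed rows moved none of the 27 single-member values by more than their counting interval. The median of the members at 3 days was 0.23 with no minimum level and −0.033 with a minimum of 5 RPKM. At 5 days it was −0.50 with TMM, −0.49 with median-of-ratios, −0.39 with the length trend removed and −0.40 when the 100 genes with the most reads were left out of the totals. Against 3 days it was −0.13 on the deposited scale, beside 0.25 over all genes. It was −0.35, −0.34 and −0.40 with TMM, median-of-ratios and the length trend removed. At 5 days 1 member was 2-fold higher with no minimum level (Fcer2a) beside 13.6% of all names, and 1 was higher at 1.5-fold (Pou2af1), beside 34.5% of all genes. Pou2af1 was under 1.5-fold with TMM (0.30) and with the length trend removed (0.27). Signs of values whose interval excluded 0 turned with the length trend removed for Cr2 (−0.10) and Cd37 (0.062) at 3 days, for Cd22 (−0.13) and Cr2 (−0.48) at 5 days and for Pou2af1 (−0.036) at 5 against 3 days. Cr2 at 5 days was −0.014 with TMM and −0.0037 with median-of-ratios. Of the 27 single-member values, 3 turned sign with TMM, 3 with median-of-ratios, 2 with the reduced totals and 8 with the length trend removed. Where the main counting interval included 0, these were Fcrla at 3 days (0.078, length trend removed) and Cd22 and Blk at 5 against 3 days (−0.27 and −0.25, likewise). What causes the trend with length was not tested. Depth limits Fcer2a (3 reads at 0 days) and widens the interval of Cr2 (209 reads).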

Other observations

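The genes whose pair of changes at 3 and 5 days came closest to the member medians were Pbx2, Txnl4b, Evi2a, Peg13 and Ssh2, at Euclidean distances of 0.020 to 0.026 on the log2 scale over 3 libraries. Of 8182 genes whose mean reached 5 RPKM, 58 lay within 0.1 of the member medians. These medians (0.12 and −0.20) are the values of no single member. Ms4a1 was at 0.28 and −0.23, and Fcrla at −0.03 and −0.27, so closeness to the medians is not likeness to a member. Evi2a was at 32.5, 35.8 and 28.1 RPKM and Pbx2 at 36.2, 39.5 and 31.2 RPKM.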
